A study of Mus musculus with 6 samples.

Results

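The 10 genes described here are 8 C-type lectin receptors of myeloid cells (Clec7a, Clec4n, Clec4d, Clec4e, Clec4a2, Clec10a, Clec12a and Clec5a), the kinase Syk and the adaptor Card9, which carry their signals. They were taken by symbol from a table of 42256 genes, and all 10 were found and passed the filter on low counts, which left 12862 genes for testing. RNA was sequenced from macrophages grown from the bone marrow of adult male mice of a mixed 129S1/Sv x C57BL/6 background. The 3 WT libraries came from CDH11+/+ mice and the 3 KO libraries from CDH11-/- mice, which lack the homotypic cell adhesion protein cadherin-11. Both genotypes were cultured for 7 days with 20% L929-conditioned medium, a source of the macrophage growth factor CSF1, and 10% FBS, and neither received any treatment. The labels give the deletion as a genotype, name no promoter, Cre or clone, and do not tie libraries to animals. The design text of the series mentions 4 KO animals, so p-values measure only the spread between these libraries, which may be technical.

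C-type lectin receptors bind sugars and glycolipids on fungi, mycobacteria and damaged cells. Dectin-1 (Clec7a), which recognises fungal beta-glucan, carries its own activating tyrosine motif, whereas Dectin-2 (Clec4n), MCL (Clec4d) and Mincle (Clec4e) pair with the Fc receptor gamma chain, and MDL-1 (Clec5a) pairs with DAP12 and DAP10. The activating motifs of Dectin-1, the gamma chain and DAP12 recruit Syk, and Card9 then assembles with Bcl10 and Malt1 to activate NF-kB. DCIR (Clec4a2) and MICL (Clec12a) carry inhibitory motifs instead, and MGL1 (Clec10a) is a common marker of alternatively activated macrophages.

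Libraries held 27170943 to 37113689 counts. Cdh11 itself stood at 6, 11 and 6 counts in WT and 6, 4 and 5 in KO, too few to check the genotype labels, the more so as a deleted stretch is not counted apart from the rest of the gene. Macrophage markers were abundant in all 6 libraries (Adgre1, which encodes F4/80, at 1211 to 1731 CPM, counts scaled to an equal library total). Of 8 such markers Cd68 rose and Csf1r and Lyz2 fell in KO, 3 of 8 beside 35.2% of all tested genes. Csf1r kept its call with each 1 library left out, whereas Lyz2 lost it without WT 1 or WT 2 and Cd68 without WT 1, WT 2, KO 2 or KO 3. The library KO 2 stood apart from the other KO libraries for several genes below.

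Promoter sequences are shown for 5 of the genes because they let the neighbours Clec4d and Clec4e, whose levels varied differently, and Clec5a and Card9, which both fell, be set beside Clec7a. Of the 10 genes, 8 had a window in the RefSeq table of GRCm38.p6, all but Clec4n and Clec10a. Each run ends before the annotated start of the gene, is written 5′ to 3′ on the strand of the gene, and has the PU.1 core GAGGAA, on either strand, in capitals. PU.1 is the transcription factor that specifies macrophages.
Clec5a, chr6:40585822-40586055, minus strand: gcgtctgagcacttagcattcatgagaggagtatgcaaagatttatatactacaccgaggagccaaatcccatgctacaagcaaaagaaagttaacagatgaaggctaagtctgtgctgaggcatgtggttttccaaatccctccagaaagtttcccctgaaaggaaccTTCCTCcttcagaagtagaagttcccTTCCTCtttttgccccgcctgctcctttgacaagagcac
Card9, chr2:26360919-26361159, minus strand: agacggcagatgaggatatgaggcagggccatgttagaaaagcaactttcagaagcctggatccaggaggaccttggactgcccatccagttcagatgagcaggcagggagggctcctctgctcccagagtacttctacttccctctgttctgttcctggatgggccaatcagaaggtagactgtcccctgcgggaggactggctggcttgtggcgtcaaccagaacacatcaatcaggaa
Clec4d, chr6:123261857-123262106, plus strand: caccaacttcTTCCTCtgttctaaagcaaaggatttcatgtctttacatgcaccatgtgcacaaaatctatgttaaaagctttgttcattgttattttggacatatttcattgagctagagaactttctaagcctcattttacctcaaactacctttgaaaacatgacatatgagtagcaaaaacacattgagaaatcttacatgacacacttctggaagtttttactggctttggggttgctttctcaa
Clec4e, chr6:123289872-123290121, minus strand: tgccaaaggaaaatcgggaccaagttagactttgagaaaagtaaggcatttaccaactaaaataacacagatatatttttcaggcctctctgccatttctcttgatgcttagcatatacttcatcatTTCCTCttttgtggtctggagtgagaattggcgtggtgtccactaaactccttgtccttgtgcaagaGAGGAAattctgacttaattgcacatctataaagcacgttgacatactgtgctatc
Clec7a, chr6:129472780-129473029, minus strand: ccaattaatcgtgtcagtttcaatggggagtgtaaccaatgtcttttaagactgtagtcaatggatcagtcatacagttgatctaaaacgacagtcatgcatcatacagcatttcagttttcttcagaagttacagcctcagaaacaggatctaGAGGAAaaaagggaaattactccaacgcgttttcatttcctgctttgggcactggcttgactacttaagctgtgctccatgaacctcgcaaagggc

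The core occurred in the 250 bases before a start in 6 of the 8 genes with a window (Clec7a, Clec4d, Clec4e, Clec12a, Clec5a and 1 of 2 windows of Syk) and in neither Clec4a2 nor Card9. It occurred in 23.3% of all 32817 RefSeq windows of that length. That share is per window, whereas a gene was counted if any of its windows matched. Clec7a and Syk had 2 windows each, and both of Clec7a matched. Clec5a and Clec12a each held 2 matches, at 81 and 55 and at 61 and 47 bases before the start, and Clec4e held 2, at 123 and 56 bases. The match of Clec7a in the window shown lay 96 bases and that of Clec4d 240 bases before the start, counted from the RefSeq start throughout. The letters TATAAA, found on either strand in 12.4% of all windows, lay 29 bases before the start of Clec4e, 161 bases before that of Clec4a2 and, on the opposite strand, 209 bases before that of Clec5a. The windows of Clec12a, Syk and Clec4a2 lie partly or wholly in exons of the GENCODE M21 annotation and are not printed. Those of Clec5a and Card9 are printed without the 16 and 9 bases that lie in such an exon. A match describes letters only and shows no binding.

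In KO macrophages 3 of the 10 genes fell and 1 rose. Clec10a fell 1.95-fold, Clec5a 1.34-fold and Card9 1.30-fold, whereas Clec12a rose 1.27-fold, and none of the 4 changes reached 2-fold with all libraries in edgeR. Dectin-1, Dectin-2, MCL, Mincle, DCIR and Syk did not pass the test. A change was called at an adjusted p under 0.05 (edgeR quasi-likelihood test, Benjamini-Hochberg adjustment over all 12862 genes). At that threshold 35.2% of all tested genes were called, 18.5% higher and 16.8% lower, beside 40% of these 10, so the share called was close to the background. The median log2 fold change of the 10 was -0.22, against 0.00139 for all tested genes, and the median absolute log2 fold change 0.36 against 0.25. The median of the 10 rested in part on KO 2: it was -0.10 without that library and -0.02 without WT 2 and KO 2 together.

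The number called depended on single libraries, for these genes as for the whole table. Without WT 1, 1 of the 10 was called where 15.1% of all genes were, without WT 2 it was 3 where 19.0% were, and without WT 3 it was 4 where 28.0% were. Without KO 1, 4 were called where 41.7% were, without KO 2 it was 2 where 20.8% were, and without KO 3 it was 2 where 18.2% were. Card9 was among those called each time. Without WT 2 and KO 2 together, Clec10a alone was called, beside 10.6% of all genes. DESeq2, limma-voom and limma on the deposited signal each called 4 of the 10, beside 33.4, 36.1 and 29.1% of all genes, and limma-voom with sample weights called 6 beside 50.4%. In edgeR, RLE scaling and library totals called 4 (35.2 and 33.9% of all genes), upper-quartile scaling 5 (35.4%), a stricter filter 4 (38.4%) and no filter 3 (18.6%).

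**Figure D1:**
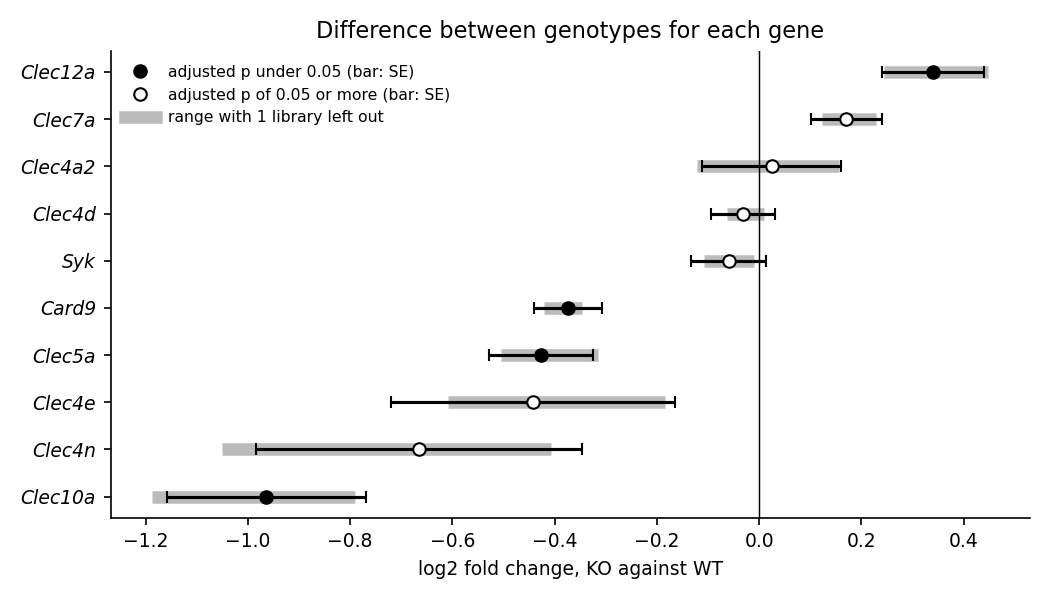
Log2 fold change of KO against WT for each of the 10 genes, with its standard error (3 libraries per genotype); filled points passed edgeR's test and grey bars span the values with each 1 library left out. Clec10a, Clec5a and Card9 lie below 0 and Clec12a above 0 with every library left out, and the bars of Clec4n and Clec4e are wide.

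The libraries of the genotypes did not overlap for 5 of the 10 genes, with KO below WT for Clec10a, Clec5a and Card9 and above WT for Clec12a and Clec7a. Among all tested genes, 53.4% did not overlap, 27.0% with KO above and 26.4% with KO below WT. For such genes a two-sided exact permutation test over the libraries gave p = 0.1, the smallest value that 3 against 3 libraries allow.

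**Figure D2:**
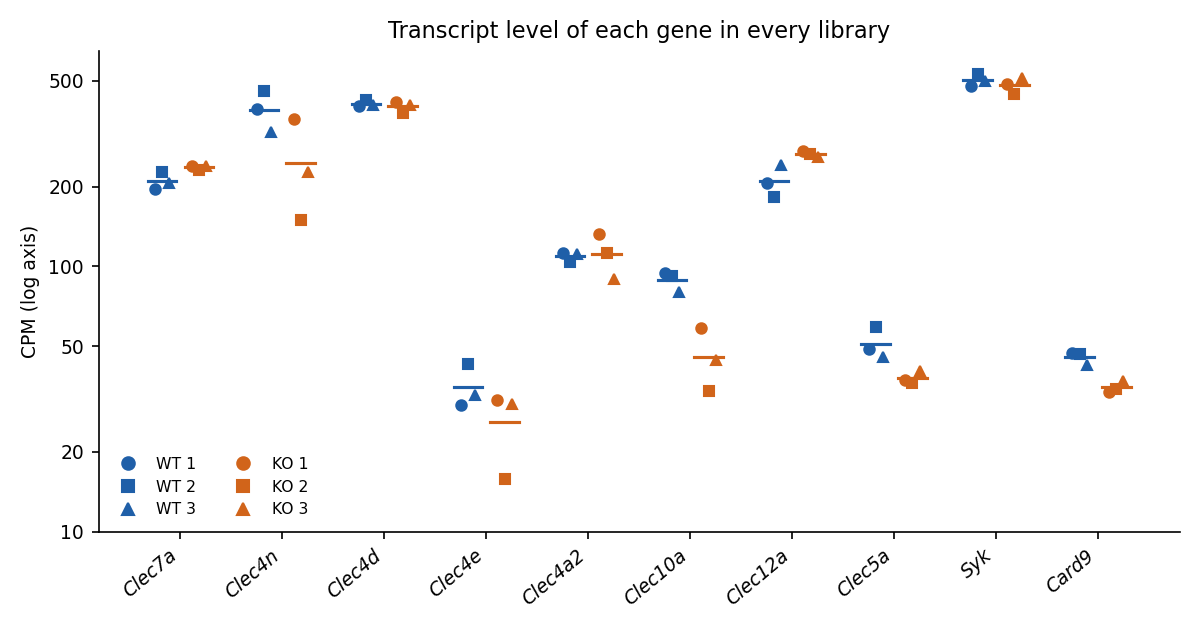
CPM (log axis) of each of the 10 genes in every library, with a line at the mean of each genotype. The 3 KO libraries lie below all WT libraries for Clec10a, Clec5a and Card9, above them for Clec12a and Clec7a, and the square of KO 2 is the lowest point of Clec4n, Clec4e and Clec10a.

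Clec10a had the largest change of the 10 genes. Its gene (ENSMUSG00000000318) lies on chromosome 11, from 70156197 to 70170834 on the plus strand of GRCm38, the assembly also called mm10, which holds for all coordinates here. WT libraries stood at 94.6, 92.2 and 79.9 CPM and KO libraries at 58.6, 33.9 and 44.3 CPM. Every KO library was thus below every WT library, and KO 1 was the KO library nearest to WT. The means were 88.9 ± 7.85 and 45.6 ± 12.4 CPM (SD, n = 3 each), with a log2 fold change of -0.96 (SE 0.19; edgeR adjusted p = 0.0140). The call was lost without KO 3 (adjusted p = 0.0527), without WT 1 (0.0501) or without a filter on low counts (0.0516). Without KO 2 it held, at a log2 fold change of -0.79. The change passed 2-fold without KO 1 (-1.19), without WT 3 (-1.04), in limma on the deposited signal (-1.04) and with sample weights (-1.03). In bulk RNA, fewer cells with a transcript and less transcript per cell cannot be told apart, here or for any gene below.

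Clec5a, the receptor MDL-1, which has no Syk-recruiting motif of its own, also fell (ENSMUSG00000029915, chromosome 6, 40574894 to 40585821, minus strand). It stood at 48.7, 58.9 and 45.3 CPM in WT and at 37.3, 36.2 and 40.2 CPM in KO. The KO libraries lay close together and below the lowest WT library, whereas WT 2 was above the other WT libraries. That gave a log2 fold change of -0.43 (SE 0.10; edgeR adjusted p = 0.0184), and the call was lost without WT 1 (adjusted p = 0.0527) or KO 2 (0.0594). Of its partner chains, Tyrobp, which encodes DAP12, stood at 634 to 647 CPM in WT and 679 to 721 CPM in KO, with a log2 fold change of 0.13 that did not pass the test (edgeR adjusted p = 0.123). Hcst, which encodes DAP10, was far lower, at 5.90 to 8.41 CPM over all 6 libraries, and did not pass either (log2 fold change 0.10, SE 0.15). These partner chains, and Fcer1g and Bcl10 below, are named for their roles after their values were seen.

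Of the inhibitory receptors, Clec12a rose and Clec4a2 did not pass the test. Clec12a, the uric acid crystal receptor MICL (ENSMUSG00000053063, chromosome 6, 129342691 to 129365303, plus strand), stood at 207, 182 and 240.4 CPM in WT and at 273, 266 and 258 CPM in KO. All KO libraries were above all WT libraries, the WT libraries being the more spread (SD 29.2 against 7.71 CPM). They differed by 0.34 on the log2 scale (SE 0.10; edgeR adjusted p = 0.0350), a call that was lost when any 1 library except WT 3 was left out, with adjusted p from 0.0619 without KO 1 to 0.111 without WT 1 and a log2 fold change of 0.24 without WT 2. Clec4a2, which encodes DCIR (ENSMUSG00000030148, chromosome 6, 123106428 to 123143999, plus strand), stood at 112, 104 and 112 CPM in WT and at 133, 112 and 89.2 CPM in KO. Its KO libraries lay on both sides of the WT libraries, and the difference (log2 fold change 0.02, SE 0.14; edgeR adjusted p = 0.903) changed sign when KO 1 or WT 2 was left out. Clec4a2 has closely related copies beside it, Clec4a1, Clec4a3 and Clec4a4, so reads could be shared between them.

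Clec7a, the beta-glucan receptor Dectin-1, showed a small difference that did not pass the test. The gene (ENSMUSG00000079293, chromosome 6, 129461591 to 129472779, minus strand) is labelled a polymorphic pseudogene in GENCODE M21. It stood at 196, 228 and 206 CPM in WT and at 239.6, 230.0 and 239.5 CPM in KO. The KO libraries were all above the WT libraries, but WT 2 reached to within a few CPM of KO 2. The difference was 0.17 on the log2 scale (SE 0.07; edgeR adjusted p = 0.09005). It passed with upper-quartile scaling (log2 fold change 0.23, edgeR adjusted p = 0.0335), which moved the median of all genes up by 0.06 on the log2 scale, and in limma-voom with sample weights (adjusted p = 0.0240).

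The receptors that signal through the Fc receptor gamma chain, Clec4n, Clec4d and Clec4e, lie next to each other on chromosome 6 but varied differently between libraries. Clec4d, which encodes MCL, a partner of Mincle and Dectin-2 (ENSMUSG00000030144, 123262111 to 123275265, plus strand), was nearly even, at 402, 423 and 405 CPM in WT and 418, 378 and 407 CPM in KO. The genotypes overlapped, and the highest library was 1.12 times the lowest. Its log2 fold change was -0.03 (SE 0.06; edgeR adjusted p = 0.721). Clec4n, the mannan receptor Dectin-2, starts upstream of it (ENSMUSG00000023349, 123229843 to 123247021, plus strand), with 15.1 kb between the genes. Clec4n stood at 391, 459.9 and 319.9 CPM in WT and at 361, 149 and 227 CPM in KO. KO 1 lay within the WT range and KO 2 and KO 3 below it, a 3.08-fold spread over the 6 libraries. The log2 fold change of -0.67 (SE 0.32) did not pass the test (edgeR adjusted p = 0.148). It was -0.41 without KO 2 and -0.27 without WT 2 and KO 2 together. Without KO 1 it was -1.05 and passed (edgeR adjusted p = 0.0287). It also passed with all 6 libraries in limma-voom with sample weights (-0.77, adjusted p = 0.0155).

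Clec4e, which encodes Mincle, the inducible receptor for mycobacterial cord factor, lies 6.52 kb beyond Clec4d (ENSMUSG00000030142, 123281789 to 123289870, minus strand). It stood at 29.9, 42.7 and 32.7 CPM in WT and at 31.4, 15.7 and 30.3 CPM in KO. All KO libraries except KO 2 lay within the WT range. The log2 fold change was -0.44 (SE 0.28; edgeR adjusted p = 0.253) and went to -0.18 without KO 2 and to -0.02 without WT 2 and KO 2 together. Set against their own WT means, KO 2 held 38.3% of Clec4n, 44.8% of Clec4e and 92.3% of Clec4d, and WT 2 held 118, 122 and 103%. The gamma chain gene Fcer1g stood at 513 to 563 CPM in WT and 448 to 530.1 CPM in KO (log2 fold change -0.12, SE 0.08; edgeR adjusted p = 0.289).

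**Figure D3:**
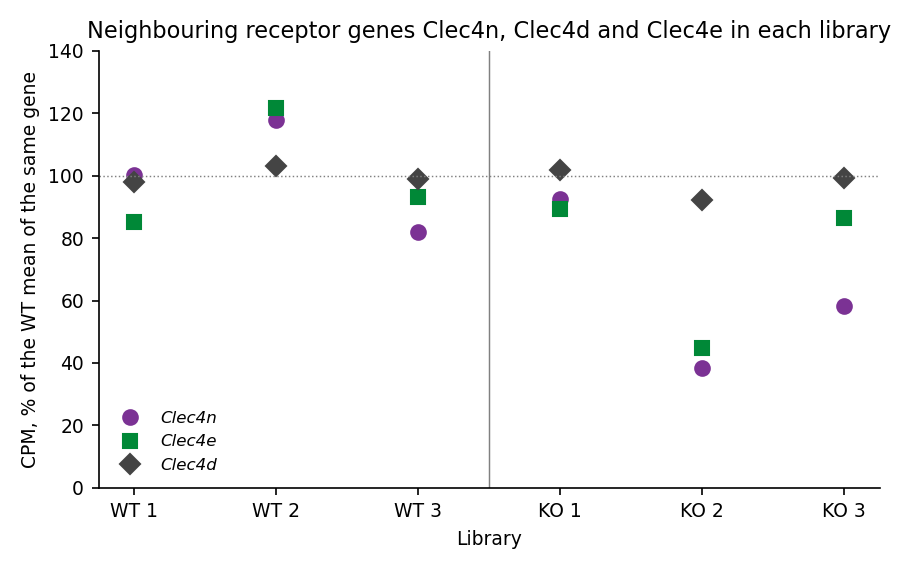
CPM of Clec4n, Clec4e and Clec4d in each library as a percentage of the WT mean of the same gene; the dotted line marks 100%. Clec4d lies between 92.3 and 103% in all 6 libraries, whereas Clec4n is at 38.3% and Clec4e at 44.8% in KO 2.

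Of the shared signalling genes, Card9 fell and Syk did not pass the test. Syk (ENSMUSG00000021457, chromosome 13, 52583173 to 52648792, plus strand) stood at 480.0, 529 and 498 CPM in WT and at 487, 448 and 511 CPM in KO. The genotypes overlapped, with a log2 fold change of -0.06 (SE 0.07; edgeR adjusted p = 0.544). Card9 (ENSMUSG00000026928, chromosome 2, 26352176 to 26360918, minus strand) stood at 47.0, 46.6 and 42.5 CPM in WT and at 33.5, 34.5 and 37.0 CPM in KO. All KO libraries were below all WT libraries, with little spread in either genotype (SD 2.48 and 1.81 CPM). Card9 thus changed by -0.37 on the log2 scale (SE 0.07; edgeR adjusted p = 0.00813), and the call held with each 1 library left out (adjusted p from 0.00864 to 0.0407). The non-coding gene Gm13562 overlaps Card9 on the opposite strand and held 0 or 1 count in each library.

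Levels of different genes were compared per kilobase of annotated exon. In WT, Clec4n (275 ± 49.3 CPM per kb) and Clec4d (256 ± 6.94) were the highest of the 10 and overlapped, followed by Clec7a (79.6 ± 6.11), Syk (53.7 ± 2.65), Clec12a (37.9 ± 5.28) and Clec4a2 (37.4 ± 1.56), of which the last pair overlapped. Clec10a (30.7 ± 2.71), Card9 (19.8 ± 1.08), Clec5a (13.3 ± 1.85) and Clec4e (7.07 ± 1.35) followed without overlap of neighbours. In KO, Clec4d (251 ± 12.8) stood above Clec4n (173 ± 75.3), their libraries still overlapping, and the other genes kept their order. Syk (51.5 ± 3.38) then overlapped with Clec12a (48.0 ± 1.39) and Clec10a (15.7 ± 4.27) with Card9 (15.3 ± 0.788), whereas Clec12a and Clec4a2 (38.0 ± 7.40) no longer did. Lengths of the longest transcript in place of all exons moved Clec4d above Clec4n and Syk above Clec7a in WT. The ratio of Clec4n to Clec4d per kb was 1.09, 1.22 and 0.889 in WT and 0.972, 0.445 and 0.629 in KO, so KO 1 lay within the WT range. The ratio of Clec7a to Syk was 1.45, 1.53 and 1.47 in WT and 1.75, 1.82 and 1.66 in KO, where the genotypes did not overlap. Nor did they overlap for the ratios of Clec10a, Clec12a, Clec5a and Card9 to Syk. For those of Clec4n, Clec4d, Clec4e and Clec4a2 to Syk they did. These ratios are descriptions without a test.

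Single libraries recurred in these values. KO 2 was the lowest of all 6 libraries for 6 of the 10 genes (Clec4n, Clec4d, Clec4e, Clec10a, Clec5a and Syk), and WT 2 the highest WT library for 6 (Clec7a, Clec4n, Clec4d, Clec4e, Clec5a and Syk). The share of all tested genes with these orders was not computed, so these counts show no trait of the 10 genes. Neutrophil transcripts also differed between libraries. The summed level of 10 neutrophil markers was 38.9, 88.1 and 34.3 CPM in WT and 81.7, 40.8 and 117 CPM in KO, so WT 2 was the highest WT library and KO 2 the lowest KO library there too. KO 3 had the highest sum of the 6 libraries, but its Clec4n (227 CPM) and Clec5a (40.2 CPM) were below every WT library. Its Clec4e (30.3 CPM) was within the WT range. None of the 9 tested neutrophil markers passed edgeR's test (1 at an unadjusted p under 0.05), beside 35.2% of all tested genes. DESeq2 and limma-voom called 0, beside 33.4 and 36.1% of all genes. With sample weights limma-voom called 5 rises, beside 50.4%. In edgeR 1 rise was called without KO 1, beside 41.7%, and 4 without WT 2 and KO 2 together, beside 10.6%. The median log2 fold change of the 9 markers was 0.70. It ran from 0.39 without WT 3 to 1.15 without WT 2, with 1.52 without WT 2 and KO 2 together. The part of these transcripts in the levels of Clec4n, Clec4e and Clec5a was not tested.

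Markers of other cells were low apart from monocyte genes. Of 8 monocyte markers F13a1, the factor XIII subunit, fell and the others did not pass, 12.5% called beside 35.2% of all tested genes. Summed levels of the 8 were 1498 to 1846 CPM in WT and 565 to 1007 CPM in KO, of which F13a1 made up most. F13a1 was 1474 ± 235 CPM in WT and 535 ± 237 CPM in KO, its lowest value (321 CPM) being in KO 2, and it lost its call without WT 1, WT 2 or KO 3, without WT 2 and KO 2 together, and with no filter. The 8 dendritic cell markers summed to 6.11 to 7.93 CPM in WT and 11.2 to 13.3 CPM in KO. Only Cd24a rose among the 5 tested, 20% called beside 35.2% of all tested genes, and the median log2 fold change of the 5 was -0.06. Cd24a was the only 1 of the 8 to reach 1 CPM in at least 3 libraries, so the sums do not describe the list as a whole. Xcr1, Clec9a and Ccr7 failed the filter, and Xcr1 had no count in 5 of 6 libraries. Stromal markers summed to 2.42 to 5.07 CPM, with Dcn and Lum at 0 counts in every library, lymphocyte markers to at most 0.807 CPM and mast cell and basophil markers to at most 0.498 CPM, with Cma1 and Tpsb2 at 0 counts. The part of these transcripts in the results was not tested.

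All of the chromosome 6 genes except Clec5a, which lies far from the others, fall into 2 lectin clusters, and neither cluster moved as a block. In the DCIR cluster, taken with 200000 bases on each side of Clec4a2 to Clec4e, 8 of 15 genes with deposited counts were tested. All 8 were C-type lectins, and 1 rose and 0 fell, beside 18.5% higher and 16.8% lower among all tested genes. The riser was Clec4b1, a lectin of dendritic cells and macrophages, at 6.67, 5.06 and 7.24 CPM in WT and 14.2, 11.9 and 9.67 CPM in KO (log2 fold change 0.91, SE 0.18; edgeR adjusted p = 0.0111). Clec4a1 stood at 141, 167 and 143 CPM in WT and 175, 115 and 94.4 CPM in KO, and Clec4a3 at 76.0, 86.8 and 74.3 against 87.4, 59.2 and 50.2 CPM. In both, as in Clec4a2, KO 1 was the highest and KO 3 the lowest of the 6 libraries. Clec4a4 had only 4 to 12 counts per library.

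In the Dectin-1 cluster, taken the same way around Clec12a and Clec7a, which lie 96.3 kb apart, 9 of 22 genes were tested. Of these 2 rose and 1 fell, beside 35.2% of all tested genes called, 18.5% higher and 16.8% lower. Besides Clec12a the riser was Clec1b, the podoplanin receptor CLEC-2 best known from platelets, at 13, 4 and 6 counts in WT and 15, 25 and 19 in KO (log2 fold change 1.45, SE 0.39; edgeR adjusted p = 0.0274). Leaving out any of WT 2, WT 3, KO 2 and KO 3 ended that call. Cd69, a leukocyte activation antigen with a lectin-like domain, fell from a mean of 3.40 ± 1.71 CPM in WT to 0.824 ± 0.343 CPM in KO (-2.03 on the log2 scale, SE 0.45; edgeR adjusted p = 0.0154), with WT 2 highest at 5.32 CPM, and KO 3 was needed for its call. Clec2d, Clec1a and Klrk1 were tested and did not pass, at 43.0 to 63.4, 1.06 to 1.88 and 0.241 to 1.06 CPM over all libraries.

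**Figure D4:**
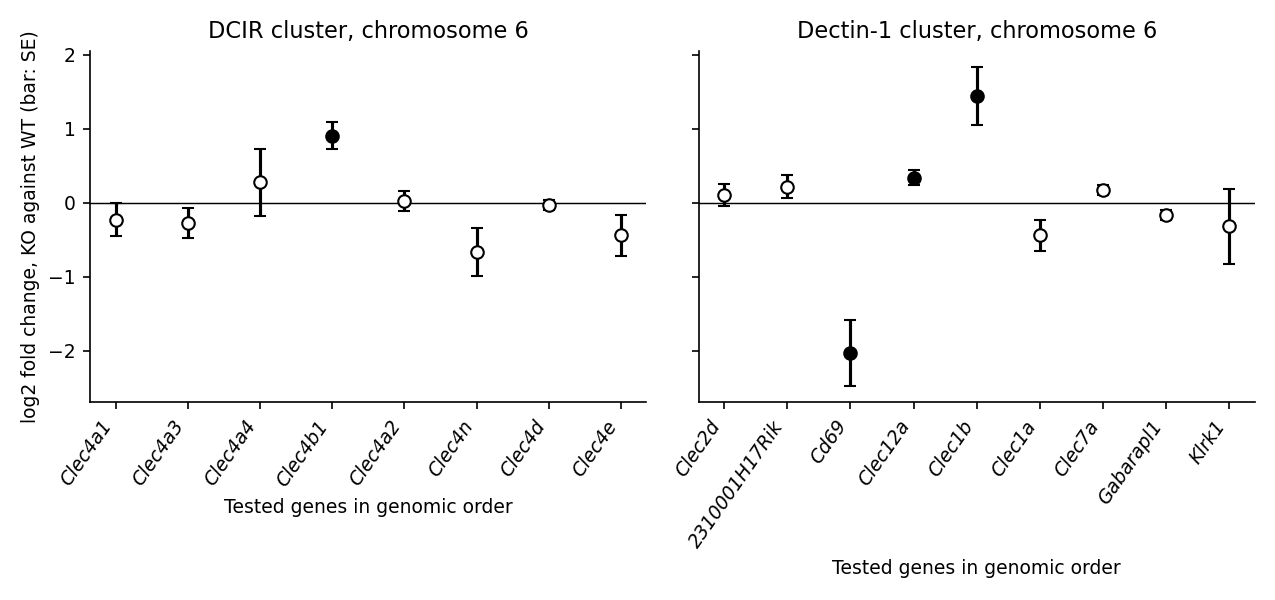
Log2 fold change of KO against WT with its standard error for the tested genes of the DCIR and Dectin-1 clusters of chromosome 6, in genomic order (filled: adjusted p under 0.05). Clec4b1, Clec12a and Clec1b lie above 0 and Cd69 below 0 among neighbours that did not pass the test.

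Other lectin receptors were mostly rare or undetected in these macrophages. Of 32 listed, 15 failed the filter, among them Cd209b to Cd209g, relatives of human DC-SIGN, and 17 were tested. Of these 2 rose and 4 fell, 35.3% of those tested beside 35.2% of all genes. Their median log2 fold change was -0.23, but -0.12 in DESeq2, -0.11 with no filter and from -0.28 without WT 1 to -0.06 without KO 3. The most abundant was the mannose receptor Mrc1, which went down from 2086, 1897 and 1860.3 CPM in WT to 984, 879 and 845 CPM in KO (a log2 difference of -1.11, SE 0.09; edgeR adjusted p = 0.00398), and Cd69, Clec1b and Clec4b1 were the other large changes. Falls numbered 3 without WT 2 or WT 3, 2 without WT 1 or KO 2, 1 without KO 3 and 6 without KO 1, and rises 1 without any of WT 2, WT 3, KO 2 and KO 3. Of all genes, 15.1, 19.0 and 28.0% were called without WT 1, WT 2 and WT 3. Without KO 1, KO 2 and KO 3 the shares were 41.7, 20.8 and 18.2%.

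Among 20 adaptors and kinases that work beside Syk, 2 rose and 4 fell, 30% of those tested beside 35.2% of all genes. Their median log2 fold change was -0.04, from -0.08 without WT 3 to -0.03 without WT 2, and 0.02 with upper-quartile scaling. Src, the founding Src-family kinase, rose from 4.98, 5.21 and 4.55 CPM to 9.34, 14.7 and 11.0 CPM (log2 fold change 1.25, SE 0.18; edgeR adjusted p = 0.00559). Lyn, a far more abundant kinase of the same family that phosphorylates activating and inhibitory motifs, fell from 379 ± 36.6 to 262 ± 38.9 CPM. The adaptor Lcp2 (SLP-76) fell from 149 ± 19.6 to 90.1 ± 16.0 CPM, and the adaptor Lat2 rose from 144 ± 24.4 to 230.4 ± 34.1 CPM. Lyn, Lcp2 and Lat2 each lost the call without WT 1 or KO 3, Lyn also without WT 2 and Lat2 also without KO 2. Falls numbered 2 without WT 1, WT 2 or KO 3, and rises 1 without WT 1, KO 2 or KO 3 and 3 without WT 2 or KO 1. The share of all genes called was 15.1% without WT 1 and 19.0% without WT 2. It was 41.7, 20.8 and 18.2% without KO 1, KO 2 and KO 3.

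The Card9 partners and relays to NF-kB, NFAT and MAP kinases comprised 23 genes, all tested. Of these 10 fell and 3 rose, 56.5% of those tested beside 35.2% of all genes, with a median log2 fold change of -0.24. The 2 partners in the Card9 complex went opposite ways: Malt1, the paracaspase, rose from 38.5, 40.6 and 45.4 CPM to 54.6, 71.4 and 65.1 CPM (log2 fold change 0.62, SE 0.11; edgeR adjusted p = 0.00828), and Bcl10 fell (95.3 ± 2.39 CPM in WT, 74.4 ± 9.21 CPM in KO; log2 fold change -0.36, SE 0.09, edgeR adjusted p = 0.0206). Bcl10 lost its call when any 1 library except WT 3 and KO 1 was left out, and Malt1 kept its own with each 1 library left out. Nfatc2, a calcium-activated transcription factor, fell from 93.2 ± 10.3 to 54.6 ± 9.78 CPM, and the inflammasome sensor Nlrp3 from 100.1 ± 11.6 to 59.99 ± 9.53 CPM. The 10 falls became 5 without WT 1 or KO 3, where 15.1 and 18.2% of all genes were called. They became 15 without KO 1, where 41.7% of all genes were. Rises ranged from 1 to 3 with 1 library left out. Without WT 2 and KO 2 together 4 fell and 0 rose, beside 10.6% of all genes called.

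Of 14 negative regulators of these receptors 5 fell and 1 rose, 42.9% of those tested beside 35.2% of all genes. Their median log2 fold change was -0.19, from -0.29 without WT 3 to -0.12 without WT 2, with -0.09 without WT 2 and KO 2 together. Inpp5d, the lipid phosphatase SHIP-1, fell from 378, 404 and 367 CPM in WT to 269, 248 and 268 CPM in KO (log2 fold change -0.55, SE 0.07; edgeR adjusted p = 0.00484). Rubcn, which encodes Rubicon, fell from 95.2 ± 7.54 to 64.7 ± 7.18 CPM. Ptprj, the tyrosine phosphatase CD148, fell from 472 ± 31.1 to 304 ± 76.2 CPM, and it too needed each library except WT 3 and KO 1. Dok2, an adaptor that restrains tyrosine kinase signals, rose from 66.5 ± 6.50 to 120.0 ± 18.5 CPM. With any of those needed libraries left out, 3 falls were called, and without KO 1 there were 7 falls and 3 rises. Shares of all genes called were 15.1, 19.0, 20.8 and 18.2% without WT 1, WT 2, KO 2 and KO 3, and 41.7% without KO 1.

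Genes that Dectin signalling induces were split. Of 18 listed, 6 failed the filter, among them Il6, Il12b and Il23a, and of 12 tested 3 rose and 1 fell, 33.3% beside 35.2% of all genes. Their median log2 fold change was -0.15, but its sign turned without WT 2 (0.03), and it was -0.42 without KO 1 and 0.12 without WT 2 and KO 2 together. Il1rn, whose product blocks the interleukin-1 receptor, went up from 23.6, 37.9 and 27.8 CPM to 69.5, 151 and 106 CPM (log2 fold change 1.87, SE 0.31; edgeR adjusted p = 0.00897). The transcription factors Egr2 and Egr3 moved in opposite directions, Egr2 rising from 23.5 ± 3.38 to 44.4 ± 7.69 CPM and Egr3 falling from 7.46 ± 1.08 to 4.87 ± 0.874 CPM. Ccl4, a chemokine, rose from 27.1 ± 2.41 to 34.8 ± 3.37 CPM. The call of Egr3 was lost when any 1 library except KO 1 was left out, and that of Ccl4 without WT 1, WT 3 or KO 3. Without KO 1 the falls were 3, beside 41.7% of all genes called.

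**Figure D5:**
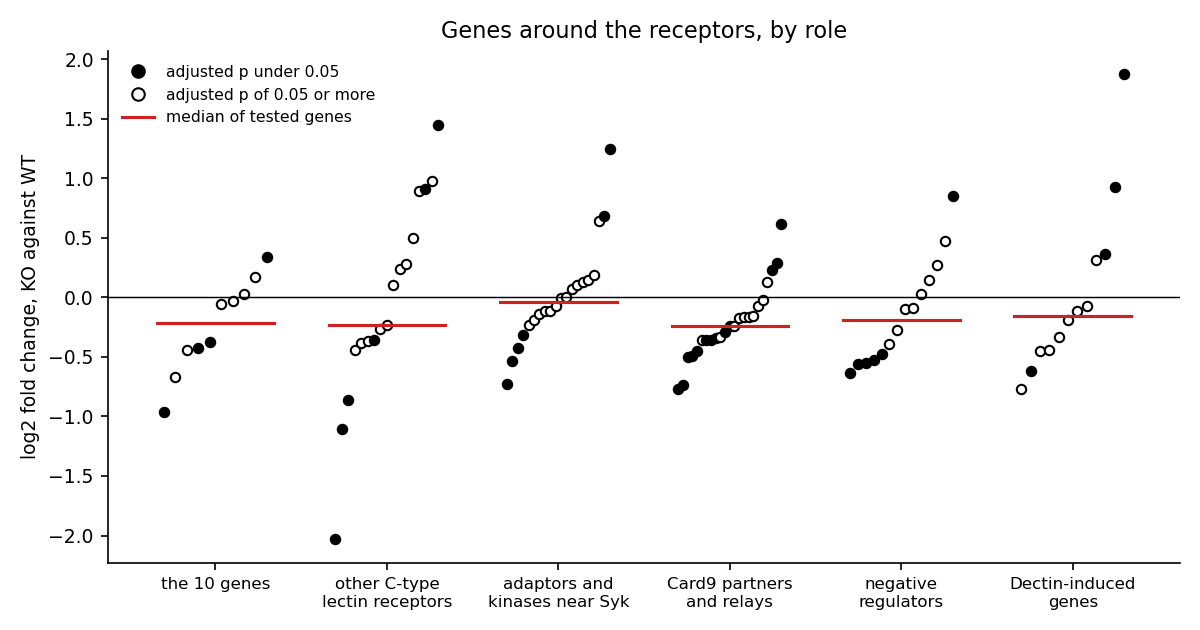
Log2 fold change of KO against WT for every tested gene of the 10 described and of 5 lists of related genes, ordered by value within each list (filled: adjusted p under 0.05; red line: median). Medians lie between -0.24 and -0.04, and each list holds genes that rose and genes that fell.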

How the data were processed

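Per the labels' protocols, RNA of cultured macrophages was made into directional libraries. The submitters' processing notes name mm10, DRAGEN and DESeq2, with neither versions nor roles. The annotation, strand setting and counting rule were not stated there. The authors deposited whole-number counts per Ensembl gene for 6 libraries and a normalized signal, used only as an alternative. Replicates were numbered in sample order. The test used edgeR 4.0.16 (R 4.3.3) on the counts, with filterByExpr by genotype (minimum count 10), TMM scaling and a two-sided quasi-likelihood test with robust dispersions and genotype as the only term, at a Benjamini-Hochberg threshold of 0.05. CPM use TMM-scaled totals of the tested genes. No pair of replicate libraries agreed within sampling noise (chi-square per degree of freedom 12.6 to 52.5). Positions and exon lengths come from GENCODE M21. The test was tried on simulated counts. Alternatives used DESeq2 1.42.0, limma 3.58.1, other scalings and filters, and fewer libraries.

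The genes and lists were chosen with earlier results of these data known. Named are the 10 genes, in each list of related genes up to 4 called genes with the largest change, and each tested C-type lectin gene of the 2 clusters. Further genes, cell markers included, were chosen after their values were seen. Some genes that the rule names are not reported here.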

Additional observations from a re-analysis of the deposited data

How the results depend on the processing

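Of the 10 genes, 1 was called higher and 3 lower in KO. The rise count was 2 with upper-quartile scaling and in limma-voom with sample weights, 0 to 1 with 1 library left out and 0 without WT 2 and KO 2 together. For those settings with 0 called by edgeR, 1 or 2 rises had an unadjusted p under 0.05, and DESeq2 and limma-voom called 1 on all libraries. The fall count ran from 1 to 4 with 1 library left out and was 1 without WT 2 and KO 2 together, where Clec10a alone kept its call (Card9 adjusted p = 0.0607 in edgeR). Over all genes, 4532 were called, 1979 to 5456 with 1 library left out and 1378 without WT 2 and KO 2 together, the share called running from 10.6 to 41.7%. Upper-quartile scaling made 64.4% of calls higher in KO, against 52.4%.

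Log2 fold changes of Clec10a, Clec5a, Card9, Clec12a, Clec7a, Clec4n and Clec4e kept their sign in all 16 alternatives. Without WT 2 and KO 2 together, however, Clec4e was near 0 (-0.0209) and Clec4n at -0.27. Sign changes fell on differences near 0 in Clec4a2, Clec4d and Syk. Clec4a2 was at -0.19 with sample weights, -0.12 to 0.16 with 1 library left out and -0.01 (-0.0150) without WT 2 and KO 2 together. Clec4d was at 0.03 (0.0271) with upper-quartile scaling, -0.0629 to 0.0100 with 1 library left out and 0.0315 without WT 2 and KO 2 together. Syk was at 0.00365 with sample weights and 0.0281 without WT 2 and KO 2 together. The cause was not tested. No paired analysis was possible because the labels give no replicate numbers shared between the genotypes.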
